A study of Homo sapiens with 36 samples.

Results

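CDKN1A, MDM2, FAS, TP53I3, SESN1, RRM2B, ZMAT3, BTG2, GADD45A and TP53INP1 are genes that the transcription factor p53 is known to induce, and they act in cell cycle arrest, DNA repair, metabolism and death signalling. They were taken by symbol, as 10 of the 25344 symbols in a table of RNA-seq counts from HMC3, an established human line derived from microglia. Cells received either vehicle or PFOS, at 25 µM or at 50 µM, over 24 h. One set was collected then, and the other, called recovery here, was first kept for 24 h more in fresh medium without PFOS. PFOS, perfluorooctane sulfonate, is a persistent fluorinated surfactant. Each of the 6 combinations of dose and time has 3 libraries, called biological replicates in the labels. Whether they were separate cultures is not stated in the labels, so the p-values reflect only how much these libraries vary, which may be technical. The labels describe 1 protocol for all recovery samples, and no group without a medium change was sampled at the later time, so time and fresh medium cannot be told apart.

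In unstressed cells p53 protein is kept low by MDM2, a ubiquitin ligase that p53 itself induces, which closes a feedback loop. Stress that frees p53 raises its targets, among them CDKN1A, which encodes p21, an inhibitor of cyclin-dependent kinases that halts the cell cycle and lets the DREAM complex repress genes of S phase and mitosis. Several of these genes are also induced by other stress pathways without p53. HMC3 cells were immortalized with SV40 large T antigen, a viral protein known to bind both p53 and the RB protein. Neither p53 protein nor the cell cycle was measured here, so "p53-induced" describes what the genes are known for, not what acted on them in these cells.

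Total counts ranged from 582233 to 4346627 per library, and all 10 genes passed the filter on low counts that left 9847 genes for testing. Levels are given as CPM, counts scaled to library size, with library sizes adjusted by TMM. The annotated spans of 6 of the 10 genes overlap another gene, and the libraries do not mark strand. CDKN1A overlaps DINOL, a long noncoding RNA not analysed here, MDM2 overlaps the carboxypeptidase M gene and FAS overlaps ACTA2. TP53I3 overlaps FAM228B, SESN1 overlaps ARMC2 and TP53INP1 overlaps NDUFAF6. Reads from a stretch that both genes of a pair share may not be told apart. Whether the exons of each pair overlap was not examined. The 3 libraries of 50 µM PFOS after recovery scored 14.9, 105 and 52.9 on the first principal component, which held 40.5% of the variance, while the other 15 lay between -29.4 and 3.38. Their shares of counts from 87 ribosomal protein genes were 2.96%, 7.66% and 5.08%, against 1.22% to 2.44% elsewhere. Library 2 of that group lay farthest out, so results that rest on it are given with and without it. The microglial label found little support in the counts, since 11 of 12 microglial and macrophage markers were too low to test. AIF1, CX3CR1, C1QA and TYROBP had no count in any library, which allows up to 0.67 CPM in the deepest library and 5.03 CPM in the shallowest, by a floor of 3 counts that covers counting error only. CD68 was the 1 testable marker, and it was higher with 50 µM PFOS at both times (1.66 and 1.44 on the log2 scale, edgeR adjusted p = 2.93e-05 and 0.000193). Summed, the 12 microglial markers held 52.8 to 79.5 CPM in the 50 µM libraries and 17.4 to 34.3 CPM elsewhere. The 8 mesenchymal markers summed to 4152 to 12743 CPM with 50 µM PFOS after recovery and to 13418 to 21341 CPM elsewhere, and 9 neuron and astrocyte markers to 15.1 to 39.8 CPM throughout. Of the 7 mesenchymal markers tested, 5 were called lower with 50 µM PFOS at 24 h and 4 after recovery, and 0 higher. Their median log2 changes were -1.21 and -0.81, where 9.59% and 10.7% of all genes were called lower. The part of these differences in the results that follow was not tested.

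Levels of all 10 genes in each library are drawn by dose and time. Vehicle itself differed between 24 h and recovery for CDKN1A and BTG2, and each dose was compared with the vehicle of its own time.

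**Figure D1:**
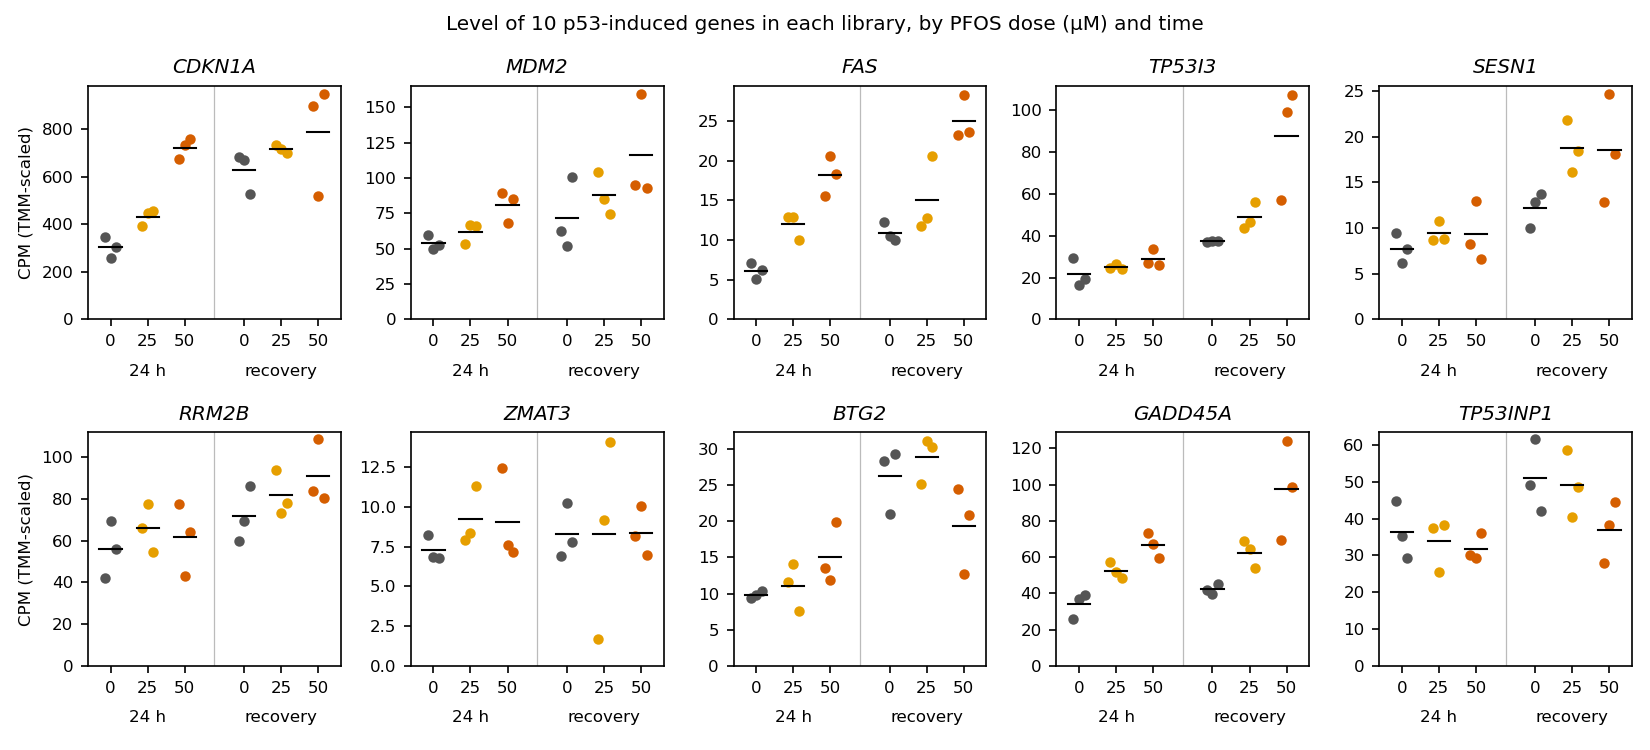
Each panel shows 1 gene, with the level in CPM (TMM-scaled library sizes, linear axis from 0) against PFOS dose in µM, at 24 h on the left and after recovery on the right. Points are libraries and lines are means of 3. CDKN1A runs from a mean of 303 CPM in vehicle to 722 CPM with 50 µM PFOS at 24 h, while vehicle after recovery is already at 627 CPM.

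CDKN1A (chr6:36676463-36687332, GRCh38.p14) rose with dose at 24 h, and rose in vehicle cells between 24 h and recovery. It encodes p21 and is the most direct link of the 10 to arrest. The libraries read 347, 259 and 304 CPM with vehicle, 392, 448 and 457 CPM with 25 µM PFOS and 674, 732 and 760.2 CPM with 50 µM PFOS. No library of a higher dose overlapped a lower one. With 50 µM PFOS CDKN1A rose 2.39-fold over vehicle (log2 change 1.26 ± 0.18 SE, edgeR adjusted p = 3.88e-05). The step from 25 to 50 µM PFOS was 1.67-fold (0.74 ± 0.18, edgeR adjusted p = 0.0134), a call lost when library 1 of 25 µM PFOS or library 2 or 3 of 50 µM PFOS was left out (adjusted p = 0.0726, 0.0514 and 0.0514). At 25 µM PFOS the change against vehicle was 0.52 ± 0.18 on the log2 scale and did not pass (edgeR adjusted p = 0.264). It passed when these 2 groups were fitted alone (edgeR adjusted p = 0.00460) or without the 50 µM recovery group (0.0125).

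After recovery the CDKN1A libraries read 684, 669.5 and 526 CPM with vehicle, 734, 717 and 701 CPM with 25 µM PFOS and 896, 517 and 947 CPM with 50 µM PFOS. The 25 µM libraries lay just above all 3 vehicle libraries, and the 50 µM group held both the highest values and, in library 2, the lowest. Neither dose passed against vehicle (log2 changes 0.20, adjusted p = 0.882, and 0.33, adjusted p = 0.177, edgeR). Without library 2 the 50 µM change was 0.56 ± 0.13 and passed (edgeR adjusted p = 0.00443). Vehicle itself was 2.07-fold higher after recovery than at 24 h (1.05 ± 0.18, edgeR adjusted p = 0.00485), and that call was lost without library 2 of vehicle at 24 h (adjusted p = 0.0803). The 50 µM effect was smaller after recovery than at 24 h by a test of the difference (-0.93 ± 0.25, edgeR adjusted p = 0.0151). This difference missed the threshold when fitted on its own libraries alone (adjusted p = 0.0524) and without library 2 of vehicle at 24 h (adjusted p = 0.0506).

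Ordered by mean, CDKN1A ran from vehicle at 24 h (303 ± 43.8 CPM, SD, n = 3) through 25 µM PFOS at 24 h (432 ± 34.9) and vehicle after recovery (627 ± 87.2) to 25 µM PFOS after recovery (718 ± 16.6), 50 µM PFOS at 24 h (722 ± 44.1) and 50 µM PFOS after recovery (787 ± 235). The top 3 groups overlapped each other. The 25 µM libraries at 24 h all lay below the vehicle libraries after recovery, and 2 of the 3 libraries of 50 µM PFOS at 24 h lay above them.

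Among the 5 genes whose pattern over the 18 libraries lay closest to CDKN1A were PABPC1L, CDK10, RFNG and FLAD1. The root mean square difference of centred log2 CPM was 0.23 for PABPC1L, 0.28 for CDK10 and 0.29 for both RFNG and FLAD1, against a median of 0.65 over 8422 genes. Among the other p53-induced genes FAS was nearest, at 0.40, and ZMAT3 farthest, at 0.74. These are descriptions, with no test.

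The upstream sequences of CDKN1A, FAS and TP53I3 are shown because FAS and CDKN1A had the largest fitted increases with 50 µM PFOS at 24 h and TP53I3 the largest after recovery. RefSeq promoter windows on GRCh38.p14 matched 7 of the 10 genes, those other than GADD45A, RRM2B and TP53INP1. The windows below cover the 250 bases before the start site in the table: chr6:36678464-36678713 on the + strand, chr10:88990548-88990797 on the + strand and chr2:24084835-24085084 on the - strand. The first 2 lie within the annotated spans of their genes, whose other transcripts start farther upstream. Capitals mark GGGCGG, the GC box of SP1-type factors, and TGANTCA, an AP-1-type motif, on either strand.
CDKN1A: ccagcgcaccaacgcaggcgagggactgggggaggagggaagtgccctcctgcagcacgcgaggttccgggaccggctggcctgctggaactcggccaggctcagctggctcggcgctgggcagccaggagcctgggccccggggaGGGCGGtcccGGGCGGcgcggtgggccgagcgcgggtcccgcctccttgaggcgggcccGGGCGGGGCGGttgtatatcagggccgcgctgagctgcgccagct
FAS: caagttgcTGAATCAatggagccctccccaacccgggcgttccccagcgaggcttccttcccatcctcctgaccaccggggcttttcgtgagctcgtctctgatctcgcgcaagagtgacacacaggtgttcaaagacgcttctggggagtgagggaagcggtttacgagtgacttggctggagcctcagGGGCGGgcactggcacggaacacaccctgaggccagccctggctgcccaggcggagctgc
TP53I3: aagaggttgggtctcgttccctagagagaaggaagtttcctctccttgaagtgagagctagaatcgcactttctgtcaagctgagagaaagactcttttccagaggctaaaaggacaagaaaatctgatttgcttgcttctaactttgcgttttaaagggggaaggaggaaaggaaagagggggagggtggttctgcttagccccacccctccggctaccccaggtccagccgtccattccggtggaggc
The CDKN1A window holds GGGCGG at 4 starts, of which the last 2 overlap, and the FAS window holds 1 GGGCGG and 1 TGANTCA (as TGAATCA). The TP53I3 window holds neither. GGGCGG was found in 5 of the 7 windows and in 42.3% of 27305 windows of the same length, and TGANTCA in 1 of 7 and 6.60%. The consensus half-site of p53 was found in 0 of the 7 and in 5.53% of all windows, and the ATF4-type motif TGATGNAA in 0 of 7 and 3.19%. CCAAT was in 3 of 7 (MDM2, ZMAT3 and BTG2) and 33.0%, and TATAAA in 0 of 7 and 11.1%. The p53 sites known for CDKN1A lie farther upstream, and that of MDM2 lies within the gene, so these short windows would not hold them.

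FAS (chr10:88964050-89017059), the cell surface death receptor, rose with 50 µM PFOS at both times. Its libraries at 24 h read 7.06, 5.04 and 6.18 CPM with vehicle, 13.0, 12.9 and 10.1 CPM with 25 µM PFOS and 15.5, 20.5 and 18.4 CPM with 50 µM PFOS. All treated libraries exceeded all vehicle libraries, and the doses did not overlap each other. The 50 µM change was 1.62 ± 0.28 on the log2 scale, 3.06-fold (edgeR adjusted p = 0.000262). At 25 µM PFOS it was 1.03 ± 0.27 and missed the threshold (edgeR adjusted p = 0.0729). That change passed narrowly with these 2 groups fitted alone (edgeR adjusted p = 0.0495) or without the 50 µM recovery group (0.0481). After recovery FAS stood at 12.3, 10.5 and 10.1 CPM with vehicle, 11.7, 12.7 and 20.5 CPM with 25 µM PFOS and 23.3, 28.2 and 23.6 CPM with 50 µM PFOS. Only the 50 µM libraries stood clear of vehicle, with a change of 1.22 ± 0.25 (edgeR adjusted p = 0.00113). Each value rests on 6 to 57 reads per library. The ligand gene FASLG had no count in any library, and FADD and CASP8, which carry the receptor's signal, passed in none of the 4 PFOS comparisons (log2 changes -0.45 to 0.31 and 0.24 to 0.49).

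GADD45A (chr1:67685201-67688334), which links growth arrest to DNA repair and stress kinase signalling, also rose with 50 µM PFOS at both times. At 24 h the libraries read 25.9, 37.1 and 39.2 CPM with vehicle, 57.6, 51.8 and 48.4 CPM with 25 µM PFOS and 73.5, 67.0 and 59.7 CPM with 50 µM PFOS. After recovery they read 42.1, 39.6 and 45.3 CPM, then 68.7, 64.5 and 54.0 CPM, then 69.8, 124 and 98.6 CPM in the same order of doses. The doses were ordered without overlap at both times, although after recovery the nearest libraries of 25 and 50 µM PFOS read 68.7 and 69.8 CPM. The 50 µM libraries after recovery ranked as their ribosomal protein shares did (2.96%, 7.66% and 5.08%). The part of that library difference in this gene was not tested. The 50 µM changes were 0.91 ± 0.20 at 24 h (edgeR adjusted p = 0.00319) and 1.21 ± 0.20 after recovery (edgeR adjusted p = 0.000145). The first was lost when all libraries were thinned to the depth of the shallowest (adjusted p = 0.0877). The 25 µM changes, 0.57 ± 0.20 and 0.56 ± 0.20, did not pass (edgeR adjusted p = 0.267 and 0.565). Of its paralogs, GADD45B did not pass against vehicle at either dose or time (-0.51 to 0.49), and GADD45G had no count.

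MDM2 (chr12:68808172-68850686), the ligase that degrades p53, read 60.0, 49.7 and 52.4 CPM with vehicle at 24 h, 53.3, 66.6 and 66.0 CPM with 25 µM PFOS and 89.0, 68.1 and 85.1 CPM with 50 µM PFOS. The 50 µM libraries lay above all others at that time, but the change of 0.60 ± 0.24 missed the threshold (edgeR adjusted p = 0.0877). It passed when these 2 groups were fitted alone (adjusted p = 0.00599) or without the 50 µM recovery group (0.0233). After recovery MDM2 read 62.8, 51.6 and 100.7 CPM with vehicle, 104, 85.1 and 74.5 CPM with 25 µM PFOS and 95.3, 159 and 93.1 CPM with 50 µM PFOS. The 50 µM change of 0.71 ± 0.24 passed (edgeR adjusted p = 0.0274) although the third vehicle library exceeded 2 of the 50 µM libraries. It was lost under 6 of 13 alternative settings, and without library 2 of the 50 µM group it was 0.40 (adjusted p = 0.252). MDM4, the related p53 inhibitor, was higher only at 24 h with 50 µM PFOS among the 4 comparisons with vehicle (0.95 ± 0.16, edgeR adjusted p = 0.000294), and its 50 µM effect differed between the times (-1.13, edgeR adjusted p = 0.00350).

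TP53I3 (chr2:24077433-24084834), a quinone oxidoreductase linked to oxidative stress, differed from vehicle after recovery. At 24 h it read 29.4, 16.6 and 19.1 CPM with vehicle, 24.5, 26.4 and 23.9 CPM with 25 µM PFOS and 26.9, 33.5 and 26.0 CPM with 50 µM PFOS, and the groups overlapped vehicle. After recovery it read 36.8, 37.5 and 37.5 CPM, then 43.6, 46.4 and 56.2 CPM, then 57.0, 99.3 and 107 CPM, with no overlap between doses. The 50 µM change went from 0.49 ± 0.25 at 24 h (edgeR adjusted p = 0.193) to 1.23 ± 0.22 after recovery (edgeR adjusted p = 0.000274). The difference between those 2 effects, 0.74 ± 0.33, did not itself pass (edgeR adjusted p = 0.119), although it did without library 1 of the 50 µM recovery group (0.96, adjusted p = 0.0135).

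BTG2 (chr1:203305519-203309602), an antiproliferative cofactor of mRNA deadenylation, moved with time in vehicle cells more than with PFOS. Vehicle libraries read 9.41, 9.73 and 10.3 CPM at 24 h and 28.3, 20.96 and 29.3 CPM after recovery, a 2.59-fold increase without overlap (1.37 ± 0.27, edgeR adjusted p = 0.0148). That call was lost without library 2 or 3 of vehicle at 24 h, without library 3 of vehicle after recovery and with thinned counts (adjusted p = 0.0574 to 0.173). With 50 µM PFOS BTG2 read 13.5, 11.9 and 19.9 CPM at 24 h and 24.4, 12.8 and 20.8 CPM after recovery. The first group lay above its vehicle and the second overlapped it, with changes of 0.67 ± 0.30 and -0.44 ± 0.28 that did not pass (edgeR adjusted p = 0.127 and 0.246). The difference between these effects, -1.11 ± 0.41, also missed the threshold (edgeR adjusted p = 0.0602). It passed without library 2 of vehicle after recovery (adjusted p = 0.0456), without library 1 of 50 µM PFOS after recovery (0.0209) and with upper-quartile scaling (0.0429). With 25 µM PFOS it read 11.5, 14.03 and 7.55 CPM at 24 h and 25.1, 31.0 and 30.3 CPM after recovery, overlapping vehicle both times. Its paralog BTG1 was higher with 50 µM PFOS at 24 h (1.12 ± 0.37, edgeR adjusted p = 0.0390). The BTG1 call was kept under 7 of 14 alternative settings (edgeR adjusted p up to 0.275). It was lost with thinned counts, with the replicate block and without any 1 of the vehicle libraries at 24 h. Leaving out library 1 or 2 of 50 µM PFOS also removed it.

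SESN1, RRM2B, ZMAT3 and TP53INP1 passed in none of the 9 comparisons. SESN1 (chr6:108984309-109094846), a sestrin that restrains mTORC1 signalling, spanned 6.13 to 13.0 CPM over the 9 libraries at 24 h and 9.96 to 24.6 CPM over the 9 after recovery. Its largest change against vehicle was 0.60 with 50 µM PFOS after recovery (edgeR adjusted p = 0.130), and 0.80 without library 1 of that group (adjusted p = 0.0430). SESN2, the paralog that ATF4 also induces, was higher with both doses at 24 h (1.68 ± 0.28 and 2.14 ± 0.28, edgeR adjusted p = 0.00197 and 1.39e-05) and read -0.21 with 50 µM PFOS after recovery (edgeR adjusted p = 0.658).

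RRM2B, on chromosome 8, encodes the p53-inducible small subunit of ribonucleotide reductase and spanned 42.3 to 77.6 CPM at 24 h and 59.7 to 108 CPM after recovery. Its changes against vehicle were between 0.11 and 0.35, and the 95% interval with 50 µM PFOS at 24 h ran from -0.35 to 0.58. The subunits used in S phase, RRM1 and RRM2, were lower with 50 µM PFOS at 24 h (-0.47 and -0.73, edgeR adjusted p = 0.0113 and 0.000232). ZMAT3 (chr3:179017223-179072513), an RNA-binding zinc finger protein, spanned 6.77 to 12.4 CPM at 24 h and 1.68 to 14.05 CPM after recovery, and its lowest value is a single read. TP53INP1, also on chromosome 8 and active in autophagy and cell death, was the 1 gene of the 10 with negative changes in all 4 PFOS comparisons (-0.09, -0.13, -0.12 and -0.48), none of which passed (edgeR adjusted p = 0.133 to 0.968). With upper-quartile scaling the last was -0.62 and passed (adjusted p = 0.0496), while the other 3 changed sign under 1 or 2 settings. It spanned 25.6 to 44.7 CPM at 24 h and 27.9 to 61.6 CPM after recovery.

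Counted together, the 10 genes responded to 50 µM PFOS in part. At 24 h 3 of them rose (CDKN1A, FAS and GADD45A) and none fell, where 9.18% of all tested genes were called higher and 18.8% in either direction. Their median change was 0.54 on the log2 scale against 0.0053 over all genes, and 5 of the 10 had every 50 µM library above every vehicle library, as did 20.3% of all genes. After recovery 4 rose (FAS, GADD45A, MDM2 and TP53I3) and none fell, where 17.7% of all genes were called higher and 28.4% in either direction. The median was 0.47 against -0.048, and 3 of 10 stood clear of vehicle, against 17.2% of all genes. In that comparison 1743 genes were called higher and 1057 lower, and upper-quartile scaling turned this split to 1498 and 1628 by moving the median of all genes to -0.17. MDM2 then lost its call (edgeR adjusted p = 0.0554), while FAS, GADD45A and TP53I3 kept theirs. Without library 2 the 4 genes called were CDKN1A, FAS, GADD45A and TP53I3.

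At 25 µM PFOS no gene of the 10 passed. At 24 h edgeR called 0 of 10, as did DESeq2, with 3 at an unadjusted p under 0.05, where 1.24% of all genes were called and 0.782% called higher. The 9 positive changes had a median of 0.34 over all 10, against -0.0041 over all genes, and CDKN1A, FAS and GADD45A had all libraries above vehicle, as did 11.4% of all genes. Fitted on these 2 groups alone, CDKN1A and FAS passed (edgeR adjusted p = 0.00460 and 0.0495). After recovery edgeR and DESeq2 again called 0 of 10, with 1 at an unadjusted p under 0.05, in a comparison where 0% of all genes were called. CDKN1A, GADD45A, SESN1 and TP53I3 had all libraries above vehicle, as did 6.89% of all genes, and the median change was 0.24 against -0.0013.

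Between the doses, 1 of 10 was higher with 50 than 25 µM PFOS at 24 h, CDKN1A, where 7.4% of all genes were called and 3.79% called higher. FAS, GADD45A and MDM2 also had all 50 µM libraries above all 25 µM libraries there, so 4 of 10 did, as did 17.2% of all genes. After recovery 3 were higher with 50 µM PFOS (FAS by 0.79, GADD45A by 0.65 and TP53I3 by 0.85), where 22.1% of all genes were called and 14.7% called higher. The same 3 stood clear of the lower dose, as did 15.9% of all genes. BTG2 went the other way, with all 50 µM libraries below all 25 µM libraries (-0.64, edgeR adjusted p = 0.112). All 3 calls were lost when only these 2 groups were fitted (edgeR adjusted p = 0.120 to 0.182). They were also lost without library 2 of 25 µM PFOS or library 3 of 50 µM PFOS (adjusted p = 0.0521 to 0.258). Without library 2 of 50 µM PFOS FAS and GADD45A were lost (0.187 and 0.216), FAS without library 1 of 25 µM PFOS (0.0782) and GADD45A without library 3 of 25 µM PFOS (0.0900). The effect of 25 µM PFOS did not differ detectably between times for any of the 10 (0 called by edgeR and DESeq2 and 0 at an unadjusted p under 0.05, with 0.0203% of all genes called). That of 50 µM PFOS differed for 1, CDKN1A, which was called lower, as were 7.42% of all genes, with 19.1% called in either direction.

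**Figure D2:**
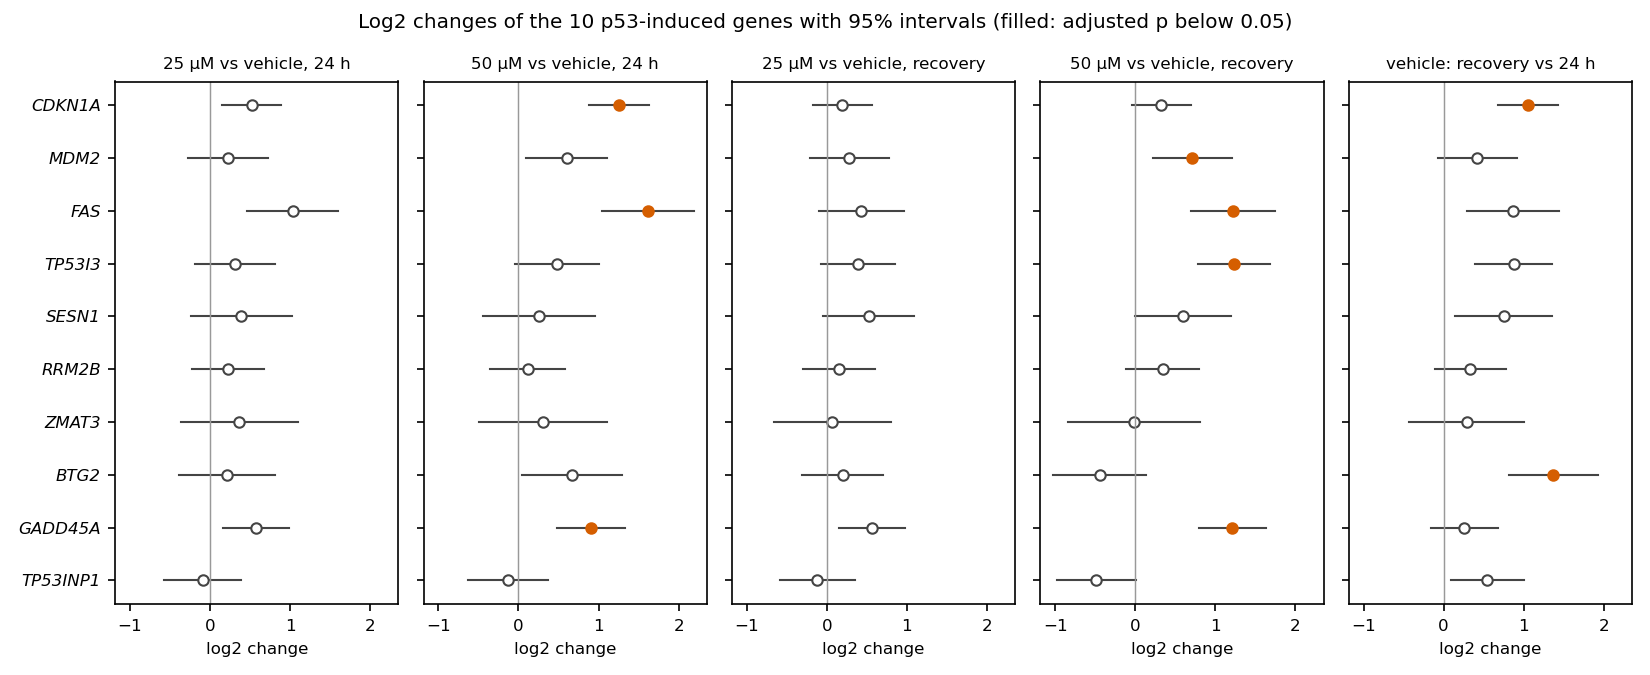
Each panel is 1 comparison, with the log2 change on the horizontal axis and the 10 genes as rows; points are edgeR estimates, bars are 95% intervals and filled points have an adjusted p below 0.05. CDKN1A is filled with 50 µM PFOS at 24 h (1.26) and in vehicle over time (1.05) but not after recovery (0.33), while TP53I3 is filled after recovery (1.23). The interval of SESN1 with 50 µM PFOS at 24 h does not match its p, which edgeR bounded from counting noise.

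All 10 genes had higher means in vehicle cells after recovery than at 24 h, and edgeR called 2 of them, BTG2 and CDKN1A, where 0.975% of all genes were called and 0.335% called higher. The median change was 0.65, against 0.012 over all genes. TP53I3 changed by 0.88 and missed the threshold (edgeR adjusted p = 0.0795), but passed with DESeq2 (0.0380), without the filter on low counts (0.0476), without the 50 µM recovery group (0.00852) and without library 1 of vehicle at 24 h (0.0386). FAS changed by 0.87, SESN1 by 0.75, TP53INP1 by 0.54, MDM2 by 0.42, RRM2B by 0.33, ZMAT3 by 0.29 and GADD45A by 0.26, with edgeR adjusted p = 0.154 to 0.787. In 6 of the 10 every later library lay above every earlier one, as in 8.76% of all genes. Of 41 other tested p53 targets 0 rose and 1 fell over this interval, with a median of 0.08. The 14 tested ATF4 stress genes had a median of 0.50, with 3 called higher.

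Of 16 tested genes of the p53 regulatory circuit, 2 rose with 50 µM PFOS at 24 h: MDM4 and the p53 kinase HIPK2 (1.03 ± 0.21, edgeR adjusted p = 0.00169). That is 12.5%, near the 9.18% of all genes called higher. After recovery 1 rose, RCHY1, a ligase that targets p53 (0.89), and 3 fell: PPM1D, the phosphatase WIP1 (-0.81), DAXX (-0.61) and TP53BP1 (-0.45). These are 6.25% higher and 18.8% lower, against 17.7% and 10.7% of all genes. None of these 4 calls remained without library 2 of the 50 µM group.

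Other known p53 targets moved in both directions, with 41 of 53 in the table tested. With 50 µM PFOS at 24 h 7 rose and 3 fell (17.1% and 7.32%, against 9.18% and 9.59% of all genes), with a median of 0.15. SESN2, the cell cycle repressor E2F7 (1.69 ± 0.17) and ANKRA2 (1.15 ± 0.29) rose, and PLK2, a polo-like kinase, fell by 1.64 on the log2 scale. After recovery 13 rose and 3 fell (31.7% and 7.32%, against 17.7% and 10.7%), with a median of 0.14, led by RPS27L (2.71 ± 0.33), ISCU (1.43 ± 0.28), SERTAD1 (1.25 ± 0.38) and ANKRA2 (1.21 ± 0.27). RPS27L, a ribosomal protein paralog, read 116, 510 and 296 CPM in those libraries, in the order of their ribosomal protein shares given above. The part of that share in this count was not tested. Without library 2 9 rose and 0 fell, and with these 2 groups fitted alone 4 rose. With 25 µM PFOS at 24 h 1 rose, SESN2, and 1 fell, PLK2, where 0.782% and 0.457% of all genes were called higher and lower, and after recovery edgeR and DESeq2 called 0, with 4 at an unadjusted p under 0.05.

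**Figure D3:**
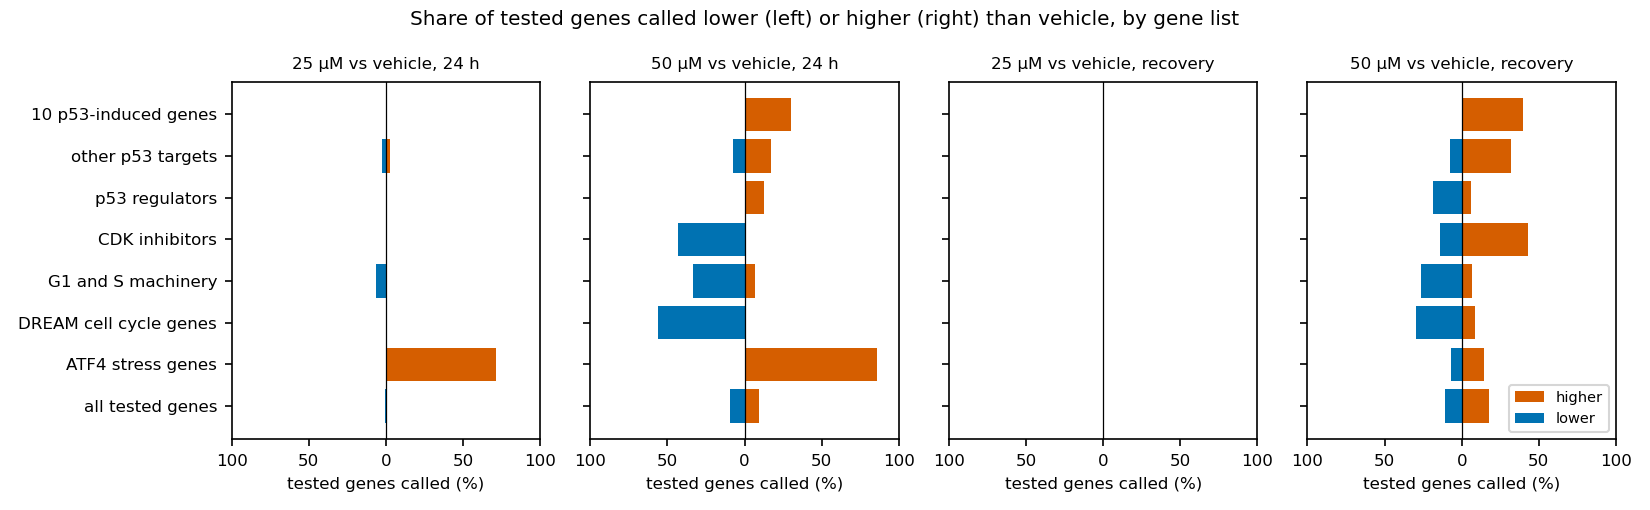
Bars give the share of tested genes in each list called higher (right) or lower (left) than vehicle, in percent, for the 4 PFOS comparisons, with all 9847 tested genes at the bottom. At 24 h with 50 µM PFOS 30% of the 10 p53-induced genes were higher and 55.9% of DREAM cell cycle genes lower, and with 25 µM PFOS after recovery no list has a bar.

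Cell cycle genes that p21 is known to repress through DREAM were lower with 50 µM PFOS at 24 h, in the libraries where CDKN1A was higher. Of 34 such genes, all tested, 19 fell and 0 rose, with a median of -0.61, where 9.59% of all genes were called lower. The mitotic kinesins KIF20A (-1.26 ± 0.15) and KIF23 (-1.05 ± 0.13), the centromeric histone CENPA (-1.02 ± 0.27) and the spindle protein PRC1 (-0.98 ± 0.13) led. Summed over the list, the libraries held 10697 to 11408 CPM with vehicle, 10094 to 10329 CPM with 25 µM PFOS and 7143 to 7388 CPM with 50 µM PFOS. With 25 µM PFOS edgeR and DESeq2 called 0 of them, with 3 at an unadjusted p under 0.05. In vehicle after recovery against 24 h, where CDKN1A rose 2.07-fold, edgeR called 0 of the 34. Their median was -0.061 there, and 0.975% of all genes were called. With 25 µM PFOS after recovery CDKN1A averaged 718 CPM, against 627 CPM with vehicle. The list summed to 9198 to 9671 CPM, below the 10203 to 11007 CPM with vehicle. Against vehicle edgeR called 0 of the list there, as it did of all genes, and the list median was -0.16. In bulk RNA fewer cycling cells and less of each transcript per cell cannot be told apart. Whether CDKN1A had a part in the changes of this list was not tested at either time.

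After recovery the same list was split, with 3 higher and 10 lower with 50 µM PFOS and a median of -0.13. These are 8.82% and 29.4% of the list, against 17.7% and 10.7% of all genes, and without library 2 of the 50 µM group 3 were higher and 8 lower. KIF20A (-0.90) and MYBL2 (-0.96) stayed below vehicle, and UBE2C (1.34) and PCNA (1.27), itself a known p53 target, were above it. The list summed to 9098 to 10291 CPM there, against 10203 to 11007 CPM with vehicle. No gene was called lower when the 2 groups were fitted alone. The 50 µM effect differed between times for 13 of the 34, all in the upward direction, where 11.6% of all genes were called higher, while that of CDKN1A was lower.

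Of 15 tested genes of G1 and S phase entry, 1 rose and 5 fell with 50 µM PFOS at 24 h (6.67% and 33.3%, against 9.18% and 9.59% of all genes). SKP2, the ubiquitin ligase subunit that degrades p21 and p27, fell at both doses (-1.11 ± 0.20 and -1.94 ± 0.20, edgeR adjusted p = 0.00369 and 6.75e-07). It was still lower with 50 µM PFOS after recovery (-1.58 ± 0.20, edgeR adjusted p = 2.31e-05). CDK6 (-1.04 and -1.47 at the 2 times), CCNE2 (-0.91) and CCND3 (-0.80) were lower at 24 h, CCNE2 and CCND3 at that time alone among the comparisons with vehicle. After recovery with 50 µM PFOS 1 of the 15 rose, CDK4 (0.64 ± 0.17), and 4 fell, RB1 among them (-0.63 ± 0.16). These are 6.67% and 26.7%, against 17.7% and 10.7% of all genes. Without library 2 of that group 0 rose and 3 fell.

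The other inhibitors of cyclin-dependent kinases did not follow CDKN1A. All 7 had negative changes with 50 µM PFOS at 24 h, with a median of -0.73, and 3 fell (42.9%, against 9.59% of all genes). CDKN2C (p18) read 25.9, 19.5 and 18.8 CPM with vehicle and 9.31, 6.49 and 4.59 CPM with 50 µM PFOS, without overlap (-1.68 ± 0.32, edgeR adjusted p = 0.000771). CDKN2B (p15) fell by 1.42 and CDKN3, a phosphatase of CDK2, by 0.88 on the log2 scale (edgeR adjusted p = 0.000294 and 0.0279). CDKN1B (p27) and CDKN1C (p57), the closest relatives of CDKN1A, read -0.53 and -0.15 and did not pass.

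After recovery with 50 µM PFOS 3 of the 7 rose and 1 fell (42.9% and 14.3%, against 17.7% and 10.7% of all genes). CDKN2A, which encodes p16 and the MDM2 inhibitor p14ARF from 1 locus that these counts cannot divide, read 103, 99.8 and 69.1 CPM with vehicle and 117, 292 and 201 CPM with 50 µM PFOS. CDKN3 read 75.1, 94.1 and 92.5 CPM against 109, 297 and 211 CPM. In both genes the 50 µM libraries lay above vehicle, with library 2 highest and library 1 lowest, the order of their ribosomal protein shares (7.66%, 5.08% and 2.96%). The changes were 1.17 ± 0.24 and 1.24 ± 0.25 (edgeR adjusted p = 0.00116 and 0.000906), CDKN1C rose by 1.14 and CDKN2B fell by 0.65, and the part of the library difference in these was not tested. Without library 2, 2 of the 3 increases and none of the decreases were called.

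**Figure D4:**
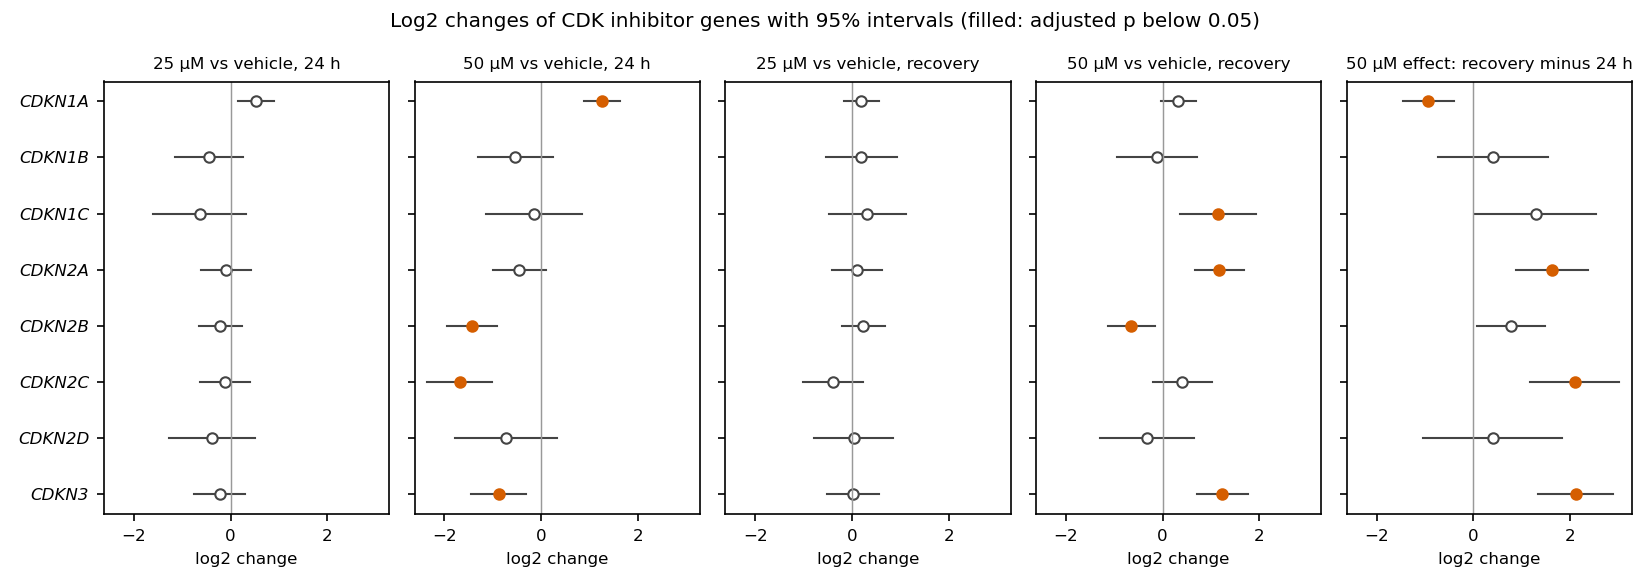
CDKN1A and 7 other CDK inhibitor genes are rows, and panels are the 4 comparisons with vehicle and the difference of the 50 µM effect between times; points are edgeR log2 changes, bars 95% intervals and filled points have an adjusted p below 0.05. CDKN1A sits at 1.26 with 50 µM PFOS at 24 h while the other 7 are below 0, and in the last panel CDKN1A is at -0.93 and the others above 0.

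Genes induced by ATF4, the transcription factor of the integrated stress response, were the pathway list with the largest share called at 24 h. None of the 10 genes is on that list, and SESN2 is on both it and the list of other p53 targets. Of 14 tested, 10 rose with 25 µM PFOS and 12 with 50 µM PFOS (71.4% and 85.7%, against 0.782% and 9.18% of all genes), with medians of 1.25 and 1.95. After recovery with 50 µM PFOS 2 rose and 1 fell, with a median of -0.15, where 17.7% and 10.7% of all genes were called higher and lower. Without library 2 of that group, and with the 2 groups fitted alone, 1 rose, DDIT3. Summed CPM at 24 h ran 1153 to 1229 with vehicle, 2843 to 3137 with 25 µM PFOS and 4663 to 4905 with 50 µM PFOS, the same order of doses as CDKN1A, FAS and GADD45A. After recovery the sums were 1573 to 1744, 2053 to 2282 and 1543 to 1684 CPM, while FAS, GADD45A and TP53I3 were highest with 50 µM PFOS. Whether ATF4 had a part in the changes of the 10 genes was not tested.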

How the data were processed

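Per the labels' protocols, RNA was taken from HMC3 cells with TRIzol and made into poly(A)-selected Smart-seq2 libraries, which carry no molecular identifiers and no strand mark. The authors deposited raw read counts per gene symbol for 18 libraries, not normalized, per the file headers. The submitters' processing notes name Trimmomatic, STAR, DESeq2 and GRCh38. For versions, counting tool and strand setting, the sources used here give nothing, and the 18 CUT&Tag samples were not analysed here.

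Counts were fitted with edgeR 4.0.16 (R 4.3.3; TMM, filterByExpr with a minimum count of 10, quasi-likelihood test, 1 mean per group over all 18 libraries), which kept 9847 of 25344 symbols. Two-sided p-values took a Benjamini-Hochberg adjustment across these 9847, and called means an adjusted p below 0.05. SE is the standard error. Genes and lists were chosen with earlier results of these data known. All 10 genes are named. From each other list the up to 4 called genes with the largest change in each comparison with vehicle were named, together with all CDK inhibitors and paralogs. Genes like CDKN1A needed a mean of at least 10 CPM, and 1 of the 5 nearest is not reported here. The fit was tested on simulated data. Alternatives were RLE and upper-quartile scaling, no filter, a replicate block, thinned counts, fewer libraries and DESeq2 1.42.0. Counts of list members under these alternatives were added after seeing the data. Of the symbols 95.5% matched RefSeq on GRCh38.p14.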

Additional observations from a re-analysis of the deposited data

Results flagged for a closer look

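For the following genes the effect of 50 µM PFOS differed between the 2 times by edgeR's test of the difference, given as the log2 change after recovery minus that at 24 h. The effect on CDKN1A was smaller after recovery by this measure (-0.93). Its mean with 50 µM PFOS was 722 CPM at 24 h and 787 CPM after recovery, and with vehicle 303 and 627 CPM. That call was lost with its own libraries alone and without library 2 of vehicle at 24 h. The p53 inhibitor MDM4 (-1.13) and the sestrin SESN2 (-2.34) also had lower effects after recovery. Each was called higher than vehicle at 24 h and not after recovery. The CDK inhibitor genes CDKN2A (1.62), CDKN2C (2.09) and CDKN3 (2.12) went the other way, as did RRM2, the S phase subunit of ribonucleotide reductase (0.81), and GADD45B (1.00).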

How the results depend on the processing

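No called change of the 10 genes changed sign under any alternative. Over their comparisons and alternatives 1285 results were on the same side of the threshold as reported, 37 lost a call and 18 gained one. The 1285 include results that were called in neither fit, so they do not measure how stable the calls were. With 25 µM PFOS at 24 h 2 genes were called from these groups alone and 2 without the 50 µM recovery group. For 50 against 25 µM PFOS after recovery, where 3 were called, upper-quartile scaling, no filter and thinned counts gave 1 each and the 2 groups alone 0, and leaving out single libraries gave 0 to 4. The same comparison at 24 h gave 0 to 1, the difference of the 50 µM effect between times 0 to 3 and vehicle over time 0 to 3. That difference gave 2 with upper-quartile scaling and 0 with its own libraries, and vehicle over time gave 1 with thinned counts. The causes of these moves were not tested, beyond the fewer reads or libraries that thinning and leaving out imply. Upper-quartile scaling moved the median of all genes to -0.17, -0.12 and -0.12 in the 50 µM recovery comparison, in 50 against 25 µM PFOS after recovery and in the difference between times, and turned their splits of higher and lower calls from 1743 and 1057, 1445 and 727, and 1147 and 731 to 1498 and 1628, 1177 and 1063, and 911 and 963.

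Counts of all called genes moved over 1.5 times in several places. Thinned counts gave 62 (25 µM PFOS at 24 h, 122 as reported), 1142 (50 µM at 24 h, 1848), 464 and 1432 (50 against 25 µM at the 2 times, 729 and 2172), 1, 1051 and 11 (the 2 differences between times and vehicle, 2, 1878 and 96). Own libraries gave 416, 2860, 864 (50 µM after recovery, 2800), 1932, 0, 35 and 1022. Without the 50 µM recovery group the counts were 285, 2828, 9 (25 µM after recovery, 0), 1544, 48 and 433. No filter gave 5, 10 and 224, and DESeq2 gave 1, 37 and 152, for 25 µM after recovery, its difference between times and vehicle. Leaving out single libraries gave 49 to 75, 1139 to 1707, 1600 to 4074, 347 to 541, 931 to 3766, 1188 to 3314 and 12 to 72.

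The fit with the replicate number as a block called 3 and 4 of the 10 genes with 50 µM PFOS at the 2 times, 1 and 3 between doses, 1 for the difference of the 50 µM effect, 2 in vehicle over time and 0 in the 3 comparisons with no call, as without it, and moved the count of all genes in vehicle from 96 to 54. The numbers do not pair the samples: deviations of same-numbered libraries correlated from -0.34 to 0.39 over 45 pairs, 7 of them above 0.1, and 2 of 18 libraries correlated best with their own number.

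Depth limits FAS, SESN1, ZMAT3 and BTG2 most: 3 counts are worth 0.67 to 5.03 CPM by library. Changes also fell with gene span (Spearman rho -0.30 with 50 µM PFOS after recovery, over 9138 genes, described with no test), and the part of this in the genes' changes was not tested.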
